A study of Saccharomyces cerevisiae with 27 samples.

Results

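The transcripts of 59 genes that process ribosomal RNA and assemble ribosomal subunits were followed in 27 RNA-seq libraries labelled as the Saccharomyces cerevisiae strain BY4741. Members were chosen by ORF identifier, from NSR1 (YGR159C) to SDA1 (YGR245C), for their known role and with earlier results of these libraries known. All 59 were found among the 6692 genes measured, and all had at least 1 count per 1000000 reads (CPM) in every library. Cultures grew in nonrestricted (NR) SC medium, which holds 2% glucose, and received CRCM, NRCM, or water when inoculated. CRCM and NRCM are concentrated conditioned media of stationary cultures that had grown with restricted (CR) or full (NR) glucose. Each was added at 2% (vol/vol). Each supplement was sampled in log phase, at 24 h, and at 96 h, with 3 biological replicates in each of the 9 groups. BY4741 is a single laboratory strain that lacks LEU2, MET17, and URA3 and, in part, HIS3, and all groups are labelled with it. The libraries come from whole cultures, so a lower level in each cell and fewer cells that express a gene cannot be told apart.

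Ribosomal RNA is made as a long precursor by RNA polymerase I and is folded, modified, and cut in the nucleolus while ribosomal proteins join it. Small nucleolar ribonucleoproteins (snoRNPs) guide the modifications, the small subunit (SSU) processome builds the small subunit, and a succession of factors with helicases and GTPases builds the large subunit. The genes of this regulon are known to be transcribed together when nutrients are ample and shut down together in starvation. The genes were grouped into the snoRNP core with NSR1 (6 genes), factors for both subunits (2), other large subunit factors (21), large subunit helicases (5), large subunit GTPases (4), and SSU processome and small subunit factors (21).

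Promoters of this regulon are known for the PAC element, which the repressors Dot6 and Tod6 bind, and the RRPE element, which Stb3 binds. In the 250 bases before the start codon, PAC (GATGAG, on either strand) was present for 56 of the 59 genes (94.9%), against 17% of 6001 protein-coding genes. RRPE (AAAATTTT, which reads the same on both strands) was present for 46 (78%), against 8.65% of all genes. Both were present for 45 (76.3%), against 4.08% of all genes. Among 137 genes of cytosolic ribosomal proteins, PAC was found for 10.2% and RRPE for 6.57%. The 90 PAC matches began at a median of 121 bases before the start codon, and the 56 RRPE matches at a median of 141 bases. Only EMG1 and ESF2 had neither element in this window, and UTP4 had RRPE alone.

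These stretches were read from the R64 assembly of RefSeq (the sacCer3 sequence) on the strand of the gene, 5′ to 3′, and each lies upstream of the start codon of the gene named. Capitals mark PAC (GATGAG or its reverse complement CTCATC) and RRPE. They are shown for some of the genes with the largest changes, or calls against the majority, in the comparisons that follow.
NSR1 (YGR159C), chrVII:807809-807855, minus strand: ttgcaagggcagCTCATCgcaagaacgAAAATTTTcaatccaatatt
NOP1 (YDL014W), chrIV:427127-427177, plus strand: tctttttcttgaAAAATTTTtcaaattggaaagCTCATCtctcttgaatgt
NOP58 (YOR310C), chrXV:898456-898495, minus strand: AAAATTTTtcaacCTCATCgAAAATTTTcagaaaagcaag
HAS1 (YMR290C), chrXIII:851680-851769, minus strand: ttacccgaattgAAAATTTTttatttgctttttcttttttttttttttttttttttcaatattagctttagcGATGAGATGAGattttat
RRP15 (YPR143W), chrXVI:818089-818223, plus strand: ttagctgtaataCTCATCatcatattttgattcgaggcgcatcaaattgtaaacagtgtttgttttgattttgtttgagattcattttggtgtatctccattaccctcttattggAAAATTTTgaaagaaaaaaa
RPF1 (YHR088W), chrVIII:281372-281413, plus strand: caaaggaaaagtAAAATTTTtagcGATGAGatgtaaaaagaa
CIC1 (YHR052W), chrVIII:210695-210742, plus strand: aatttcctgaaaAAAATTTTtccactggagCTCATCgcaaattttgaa
NOC3 (YLR002C), chrXII:156434-156473, minus strand: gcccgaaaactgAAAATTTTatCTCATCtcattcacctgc
UTP10 (YJL109C), chrX:217392-217437, minus strand: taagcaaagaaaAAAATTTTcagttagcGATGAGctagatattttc

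In NOP58 the PAC letters lie between a pair of RRPE copies, and in HAS1 overlapping PAC copies follow a run of T. NOC3 and RPF1 hold the elements a few bases apart, while RRP15 holds them at opposite ends of a long stretch. All 9 stretches hold both elements, those of UTP10 and NOC3, which fell with CRCM at 96 h, included. RRP9, ESF1, NOP16, RRP1, and LSG1, which also had large changes below, hold PAC alone and are not shown. The 9 therefore do not stand for all genes with large changes. A match is only a description of the sequence, and binding was not measured.

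**Figure D1:**
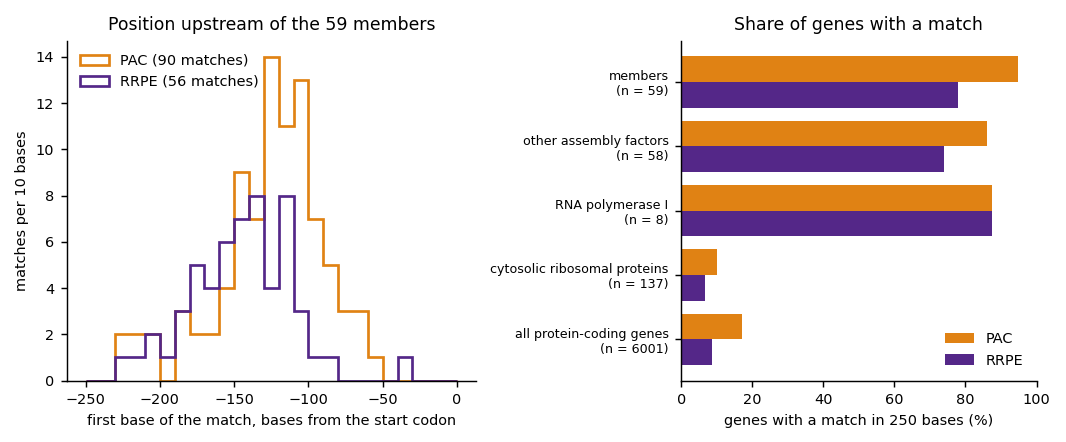
Left, number of PAC and RRPE matches per 10 bases in the 250 bases upstream of the 59 assembly factor genes, by the distance of the first base from the start codon. Right, percent of genes with a match in 5 gene lists. PAC was found for 94.9% and RRPE for 78% of the 59 genes, against 17% and 8.65% of all protein-coding genes.

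Library totals, recovered from the deposited shares, lay between 7396426 and 114316156 reads (median 12375093), and the lowest count of any of the 59 genes in a library was 71 reads. In the library labelled CRCM 96 h replicate 3, LEU2 stood at 68.1 CPM and URA3 at 11.7 CPM, while the highest values among the other 26 libraries were 0.174 and 0.177 CPM. The reads of LEU2 and URA3 in this library go against its strain label. MET17 was at 0 in all libraries, and HIS3, which BY4741 lacks only in part, was read in all and checks nothing. That library also held the highest level of its group for 49 of the 59 genes, against 38.1% of all genes tested. CRCM 24 h replicate 1 was the highest of the 3 CRCM cultures for all 59 genes, against 33.3% of all genes. Other libraries also lay at one end of their group. CRCM 24 h replicate 3 was the lowest of its group for 48 of the 59 genes (27% of all genes), CRCM 96 h replicate 1 for 50 (32.2%), and water 24 h replicate 2 for 47 (42%). Water 96 h replicate 2 was the highest for 46 (40.9% of all genes), water log-phase replicate 3 for 44 (33.7%), and NRCM log-phase replicate 3 for 41 (39.4%). The main counts and lists are given with and without the 2 libraries named first, whose part in the results was not otherwise tested.

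In log phase, the assembly factor transcripts made up 1.51% ± 0.0372 of all reads in CRCM cultures, 1.56% ± 0.252 in NRCM cultures, and 1.63% ± 0.175 in water cultures (SD, n = 3 each). Per kilobase of ORF, the snoRNP core with NSR1 held the 6 highest levels in the water cultures. The highest was NOP1, the fibrillarin methyltransferase, at 1035 ± 224 CPM per kb, followed by the nucleolin homolog NSR1 at 1006 ± 295 CPM per kb, and these neighbours differed by less than their spread. The highest of the other roles were NOP7 (large subunit, 383 ± 62.6 CPM per kb), the GTPase NOG1 (291 ± 50.3), the helicase DBP3 (266 ± 61.1), the helicase HAS1 for both subunits (230.3 ± 35.6), and the rRNA methyltransferase EMG1 for the small subunit (221 ± 44.0). UTP20, a very large scaffold of the small subunit, was lowest at 42.2 ± 11.1 CPM per kb.

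In log phase no assembly factor differed detectably between supplements. With limma, 0 of 59 genes were called for CRCM against water, where 0% of all 6483 genes were called, 0 for NRCM against water, where 0.0154% were, and 0 for CRCM against NRCM, where 0% were. Called means an adjusted p under 0.05 over all genes tested. At an unadjusted p under 0.05, only UTP13 passed for CRCM against water, and no gene did in the other comparisons. edgeR and DESeq2 on recovered reads also called 0. The median log2 fold change of the 59 genes was -0.00 for CRCM against water, 0.02 for NRCM against water, and -0.04 for CRCM against NRCM. NSR1 stood at 1065, 1084 and 1332 CPM in the CRCM cultures, 1143, 1136 and 1248 CPM in the NRCM cultures, and 951, 875 and 1437 CPM in the water cultures, and the groups overlapped.

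Most assembly factor transcripts were far lower at 24 h, which the study places late in the diauxic shift, than in log phase. Only RRP15 in CRCM cultures was not called lower. The share of the 59 genes among all reads was 0.392% ± 0.0803 in CRCM, 0.209% ± 0.0120 in NRCM, and 0.232% ± 0.00980 in water cultures at 24 h (SD, n = 3 each), which is 25.9%, 13.4%, and 14.2% of the share in log phase. In water cultures 59 of 59 genes fell, where 39.3% of all genes were called lower, with a median log2 fold change of -2.51 against -0.02 over all genes. In NRCM cultures 59 fell (background 39.6%, median -2.75), and in CRCM cultures 58 fell (background 36.5%, median -2.16). No gene rose with limma, edgeR, or DESeq2, or at an unadjusted p under 0.05.

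The 3 deepest falls in water cultures were of the snoRNP protein gene NOP58, the helicase gene HAS1, and NSR1. NOP58 (YOR310C) stood at 56.6, 37.3 and 59.8 CPM at 24 h, against 799, 541 and 702 CPM in log phase, a log2 fold change of -3.72 ± 0.26 (SE) with adjusted p = 2.51e-12. HAS1 (YMR290C) averaged 27.1 ± 4.24 CPM at 24 h and 349.6 ± 54.1 CPM in log phase (log2 -3.64). NSR1 stood at 114, 87.6 and 99.0 CPM at 24 h, against 1084, 999 and 1673 CPM in log phase (log2 -3.60), and none of these genes overlapped between the times. The snoRNP core with NSR1 had the lowest median of these roles, with a log2 fold change of -3.45, against -2.54 for other large subunit factors and -2.29 for the SSU processome group. Falls were smallest for UTP20 (log2 -1.01), NOP16, a pre-large-subunit factor (log2 -1.17), and RRP15 (log2 -1.37), all called.

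In CRCM cultures the exception was RRP15 (YPR143W), which encodes a factor of early large subunit particles. It stood at 108, 94.8 and 93.1 CPM at 24 h, against 92.4, 112 and 157 CPM in log phase, and the groups overlapped. Its log2 fold change was -0.25 ± 0.30 (SE) with adjusted p = 0.454, against -1.77 in NRCM cultures and -1.37 in water cultures. NOP16 (log2 -0.58, adjusted p = 0.013) and UTP20 (log2 -0.76) had the next smallest falls with CRCM. The call of NOP16 was lost without scaling factors. The deepest were those of NOP58 (log2 -3.56), NOP56 (log2 -3.49), and NOP1 (log2 -3.38). With NRCM the deepest were NOP58 (log2 -3.91), NSR1 (log2 -3.83), and NOP56 (log2 -3.77), and the smallest NOC4 (log2 -1.21), UTP20 (log2 -1.31), and NOP16 (log2 -1.68).

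**Figure D2:**
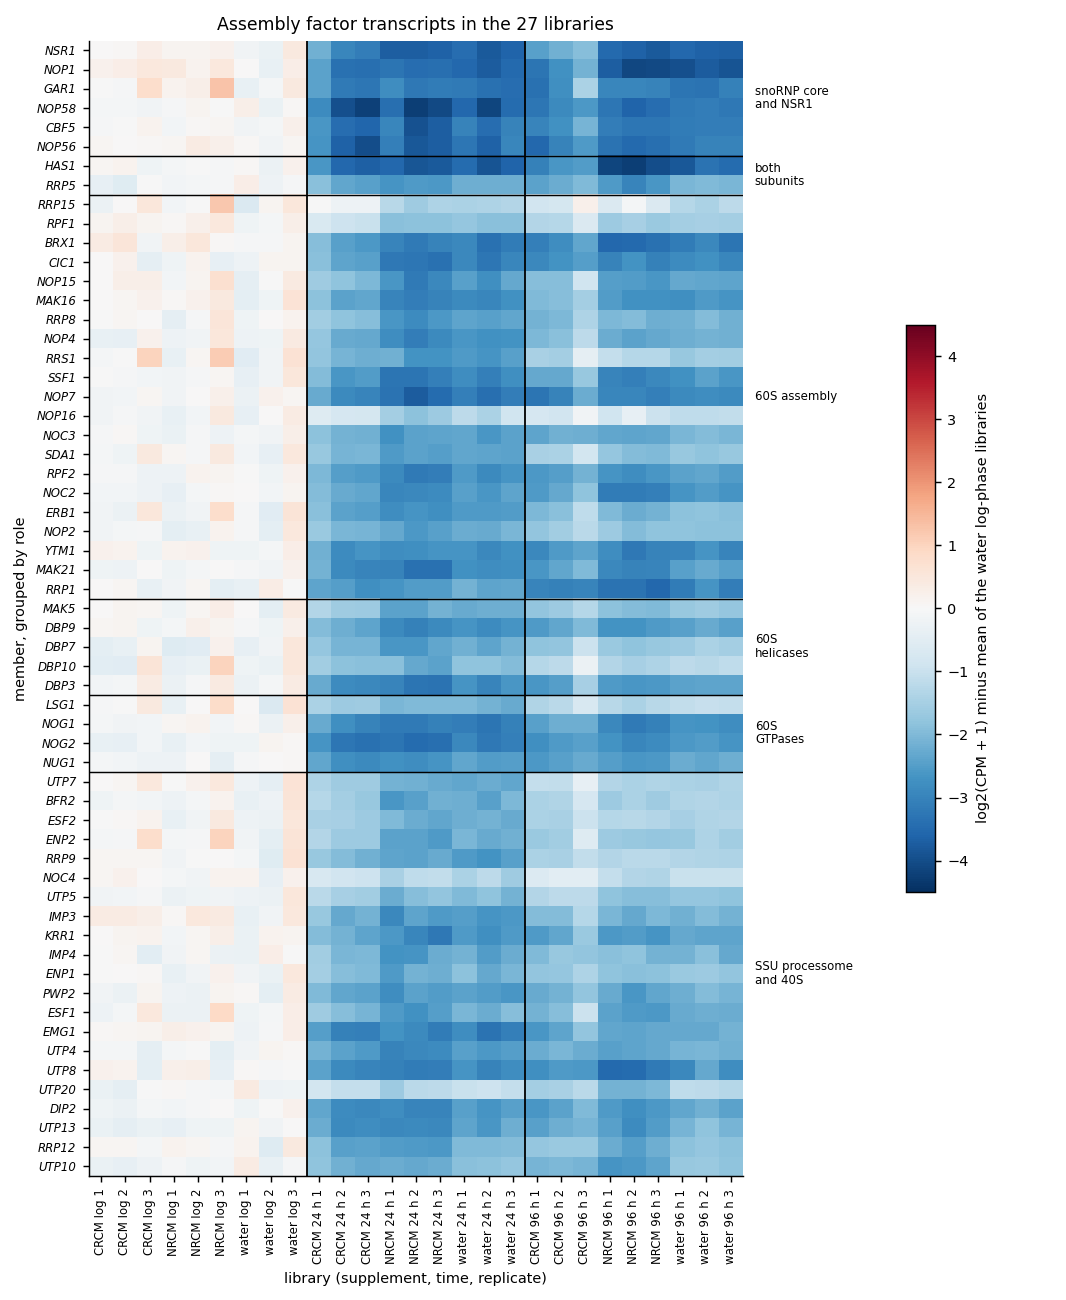
Each row is an assembly factor gene, grouped by role, and each column a library, in order of time and then CRCM, NRCM, and water. Color gives log2(CPM + 1) minus the mean of the 3 water log-phase libraries, so blue is lower. Nearly every cell at 24 h and 96 h is blue, least so for RRP15, NOP16, NOC4, and UTP20, and CRCM 24 h replicate 1 and the library labelled CRCM 96 h replicate 3 are paler than the other libraries of their groups for most genes.

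At 96 h the median level had come back in part. In water cultures 20 of 59 genes were higher at 96 h than at 24 h (27.2% of all genes) and 1 was lower (26.5%), with a median log2 fold change of 0.31. In NRCM cultures 25 were higher (28.8%) and 3 lower (28.3%), median 0.36, and in CRCM cultures 14 were higher (22.5%) and 3 lower (24.7%), median 0.27. These counts of higher genes lie near or above the background, and those of lower genes lie below it. Without scaling factors 56 were higher in water, 49 in NRCM, and 26 in CRCM cultures, and 0 were lower in any of them. RRP9, a protein of the snoRNP that guides early cleavages, rose in all 3 supplements (log2 0.61 with CRCM, 1.11 with NRCM, 1.21 with water). RRP1, a nucleolar large subunit factor, fell in all 3 (log2 -0.46, -0.84, and -0.68 in the same order). The fall of RRP1 was not called without scaling factors in any of the 3, nor with CRCM without CRCM 24 h replicate 1 or 2 or CRCM 96 h replicate 2.

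In water cultures the other large rises were of LSG1, a GTPase that recycles a nuclear export adapter from large subunits (log2 1.04, adjusted p = 0.000964), and RRS1, which helps load the smallest large-subunit rRNA (log2 0.95, adjusted p = 0.0182). With NRCM, RRS1 (log2 1.31) and RRP15 (log2 0.95) rose, and UTP20 (log2 -0.74) and NOP1 (log2 -0.59) fell. With CRCM, RRS1 (log2 0.89), the helicase gene DBP10 (log2 0.86), and NOP58 (log2 0.76) rose, while CIC1 (log2 -0.45) and UTP20 (log2 -0.40) fell. Without CRCM 24 h replicate 1, 24 genes were called with CRCM, all higher, and without the library labelled CRCM 96 h replicate 3, 9 were called, 4 higher and 5 lower. The rises of RRS1, DBP10, and NOP58 with CRCM were not called without the library labelled CRCM 96 h replicate 3 or CRCM 24 h replicate 2 or 3. The falls of CIC1 and UTP20 were not called without CRCM 24 h replicate 1 or CRCM 96 h replicate 1 or 2, and without scaling factors neither these nor, with NRCM, those of UTP20 and NOP1 were.

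With CRCM the assembly factors stood above water at 24 h. Of the 59 genes 27 were higher, where 26.8% of all genes were called higher, and 0 were lower, where 24.7% were. At an unadjusted p under 0.05, 2 were lower, and edgeR and DESeq2 called 0 lower. The median log2 fold change was 0.38 against 0.01 over all genes, and 48 of 59 were positive. Other large subunit factors were called higher in 13 of 21 cases (median log2 0.47), SSU processome and small subunit factors in 9 of 21 (0.24), helicases in 2 of 5 (0.22), GTPases in 2 of 4 (0.20), the snoRNP core with NSR1 in 1 of 6 (0.19), and factors for both subunits in 0 of 2 (0.16). Without CRCM 24 h replicate 1, 20 genes were higher (23.4% of all genes) and 6 lower (22.7%). Other large subunit factors were then higher in 9 cases and lower in 1, the SSU processome group in 7 and 4, GTPases in 1 and 1, helicases in 2 and 0, and the snoRNP core with NSR1 in 1 (NSR1) and 0, and the median was 0.20. Without scaling factors, where the median of all genes shifts to 0.42, 49 were higher and 0 lower.

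RRP15 changed most. It stood at 97.4, 86.8 and 85.7 CPM in the CRCM cultures, 42.0, 33.4 and 38.0 CPM in the NRCM cultures, and 37.4, 38.0 and 40.8 CPM in the water cultures, so that every CRCM culture lay above every other culture. Its log2 fold change for CRCM against water was 1.19 ± 0.10 (SE), or 2.29-fold, with adjusted p = 2.37e-05. RPF1 (YHR088W), a large subunit factor of the Brix family, stood at 62.7, 53.8 and 51.6 CPM in the CRCM cultures, 27.9, 28.9 and 28.2 CPM in the NRCM cultures, and 30.4, 27.6 and 28.3 CPM in the water cultures. The CRCM cultures were again all highest, with a log2 fold change of 0.93 ± 0.09 (SE) and adjusted p = 5.39e-05. NSR1 stood at 246, 147 and 131 CPM in the CRCM cultures, 86.0, 86.6 and 89.6 CPM in the NRCM cultures, and 105, 80.3 and 92.6 CPM in the water cultures. Here replicate 1 of CRCM was far above the other CRCM cultures, and the log2 fold change of 0.86 ± 0.20 (SE) (adjusted p = 0.00663) was 0.58 without it, still called.

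BRX1 (YOL077C), another Brix protein gene, averaged 53.5 ± 13.4 CPM with CRCM and 30.1 ± 5.06 CPM with water (SD, n = 3 each, log2 0.79, adjusted p = 0.00413 by limma). CIC1 (YHR052W), a factor of early large subunit particles, averaged 51.4 ± 11.5 CPM with CRCM and 29.5 ± 4.17 CPM with water (log2 0.77, adjusted p = 0.00293). Among small subunit factors the largest rises were of UTP7 (log2 0.74) and BFR2 (log2 0.70), and among helicases that of MAK5 (log2 0.69). The snoRNP protein genes NOP1, GAR1, NOP58, CBF5, and NOP56 were not called, with log2 values of 0.51, 0.35, 0.03, -0.07, and -0.18. They were, in the same order and without CRCM 24 h replicate 1, 0.20, 0.10, -0.38, -0.35, and -0.55, and again none was called.

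At the other end, the 5 smallest log2 fold changes at 24 h were those of UTP10 (-0.29), RRP12 (-0.28), RRP1 (-0.27), UTP13 (-0.26), and the GTPase gene NUG1 (-0.23), and none was called. UTP10 (YJL109C), a large scaffold protein gene of the SSU processome, stood at 91.0, 72.5 and 65.6 CPM in the CRCM cultures, 69.4, 66.3 and 68.0 CPM in the NRCM cultures, and 89.3, 89.1 and 99.7 CPM in the water cultures. The CRCM and water cultures overlapped through CRCM replicate 1 alone. Without that library UTP10 (log2 -0.42), RRP12 (-0.46), RRP1 (-0.35), UTP13 (-0.45), and NUG1 (-0.39) were called lower, as was DIP2. Without scaling factors UTP10 and RRP12 were above water with CRCM at 24 h, by log2 0.13 and 0.14.

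**Figure D3:**
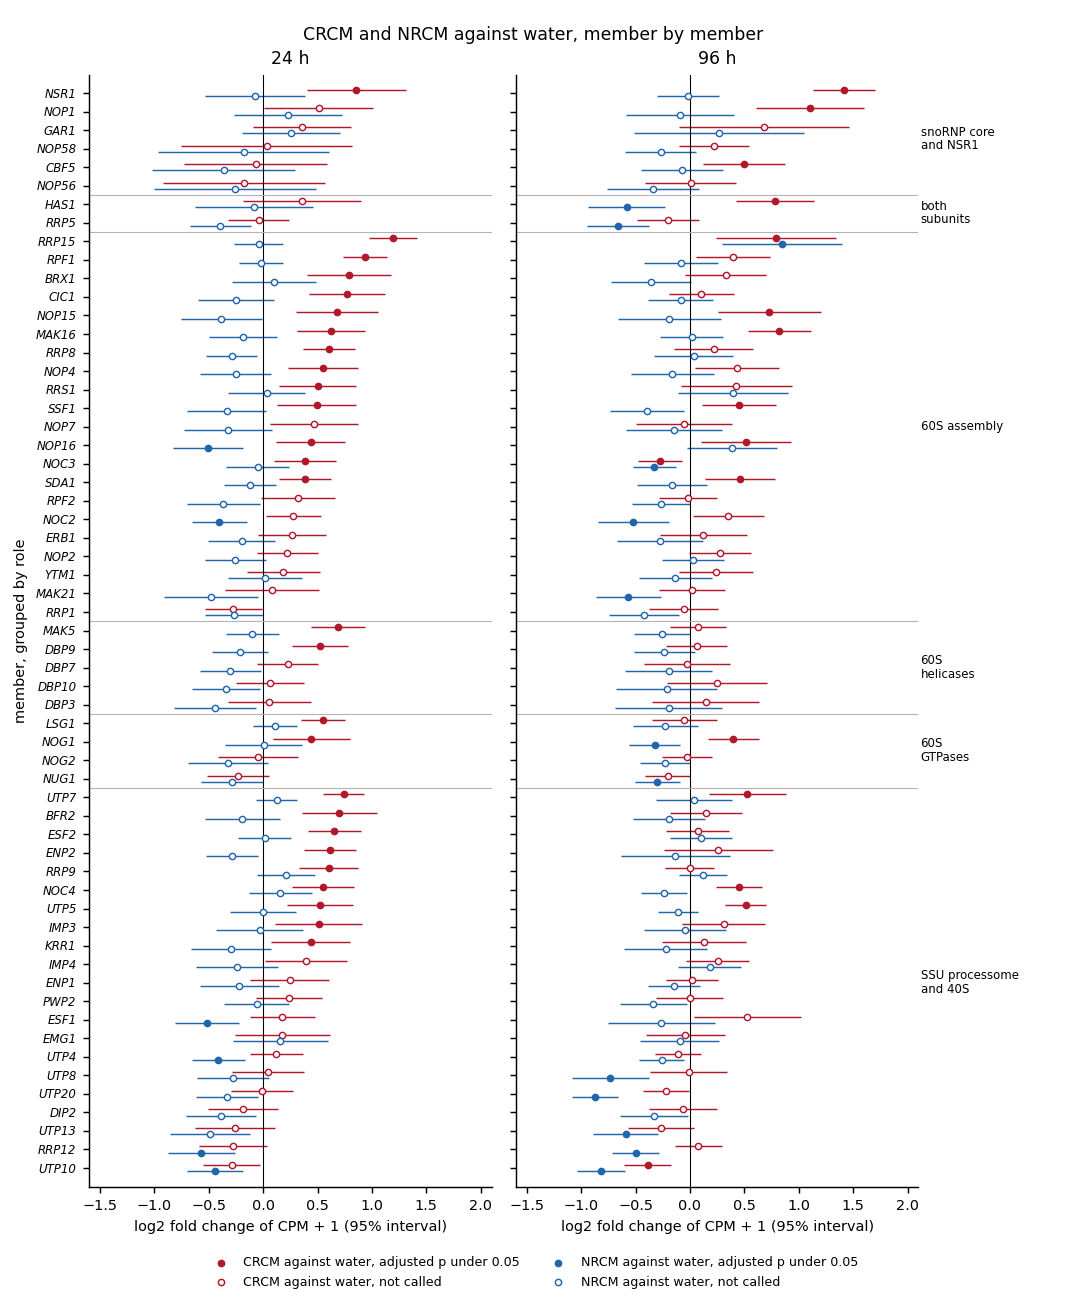
Log2 fold changes of the 59 genes for CRCM (red) and NRCM (blue) against water at 24 h and 96 h, with 95% intervals from limma. Filled points have an adjusted p under 0.05. At 24 h, 27 red points are filled on the right and 6 blue points on the left. At 96 h, 14 red points are filled on the right and 2 on the left, with 1 blue point on the right and 12 on the left.

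At 96 h fewer of these genes were called higher with CRCM than with water, and their share lay near that of all genes. Higher were 14 of 59 (23.7%, against 19.5% of all genes), and lower were 2 (3.39%, against 21.9%), UTP10 and NOC3. Whether the effect differed between the times was tested by the interaction term given below. The median log2 fold change was 0.15 against -0.02 over all genes. The snoRNP core with NSR1 was called higher in 3 of 6 cases (median log2 0.59), other large subunit factors in 6 of 21 (0.33), the SSU processome group in 3 of 21 (0.07), GTPases in 1 of 4, factors for both subunits in 1 of 2, and helicases in 0 of 5. Of the 14 genes 11 (78.6%) were among the 27 higher at 24 h (40.7% of those). Without the library labelled CRCM 96 h replicate 3, 12 genes were higher (22.6% of all genes) and 7 lower (24.4%), with the snoRNP core with NSR1 called higher in 3 cases, other large subunit factors in 4 and lower in 2, and the SSU processome group in 3 and 2, and the median was -0.02. Without scaling factors, where the median of all genes shifts to -0.12, 8 were higher and 4 lower, and 7 or 8 were higher without any 1 of the water libraries of 96 h, 22 without CRCM 96 h replicate 1.

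NSR1 changed most at 96 h. It stood at 279, 339 and 392 CPM in the CRCM cultures, 136, 123 and 111 CPM in the NRCM cultures, and 132, 123 and 119 CPM in the water cultures. All CRCM cultures lay above the highest of the other cultures, and the log2 fold change against water was 1.42 ± 0.13 (SE), or 2.67-fold, with adjusted p = 2.16e-05. Without the library labelled CRCM 96 h replicate 3 it was 1.30. NOP1 (YDL014W) stood at 126, 188 and 273 CPM in the CRCM cultures, 95.8, 72.7 and 75.0 CPM in the NRCM cultures, and 80.1, 94.1 and 84.6 CPM in the water cultures. The CRCM cultures differed widely among themselves but did not overlap the others, with a log2 fold change of 1.11 ± 0.23 (SE) and adjusted p = 0.00304, or 0.83 without replicate 3. HAS1 stood at 51.0, 69.2 and 73.0 CPM in the CRCM cultures, 23.6, 22.4 and 26.6 CPM in the NRCM cultures, and 29.8, 43.3 and 38.2 CPM in the water cultures, in the order CRCM above water above NRCM. Its log2 fold change for CRCM against water was 0.78 ± 0.16 (SE) (adjusted p = 0.00338).

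MAK16, a large subunit factor, averaged 49.7 ± 8.69 CPM with CRCM and 27.6 ± 2.38 CPM with water (log2 0.82, adjusted p = 0.000752 by limma). RRP15 stood at 74.4, 78.8 and 154 CPM in the CRCM cultures, 87.3, 132 and 88.1 CPM in the NRCM cultures, and 56.1, 51.0 and 60.1 CPM in the water cultures. The NRCM cultures lay within the range of the CRCM cultures (log2 0.79 for CRCM against water, adjusted p = 0.0278, and log2 0.46 without replicate 3, still called), and the call was lost when any 1 of the water libraries of 96 h was left out. UTP10 stood at 103, 107 and 99.9 CPM in the CRCM cultures, 70.5, 73.9 and 86.6 CPM in the NRCM cultures, and 137, 143 and 128 CPM in the water cultures, and the 3 groups did not overlap (log2 -0.39 for CRCM against water, adjusted p = 0.00968). NOC3 (YLR002C), which escorts large subunit particles through the nucleoplasm, stood at 43.5, 50.9 and 47.8 CPM in the CRCM cultures, 45.8, 45.1 and 45.8 CPM in the NRCM cultures, and 55.9, 60.8 and 55.9 CPM in the water cultures. Its CRCM and water cultures did not overlap (log2 -0.27, adjusted p = 0.0324), and the call was lost with a replicate block and without any 1 of the water libraries of 96 h. UTP13 (log2 -0.27), UTP20 (-0.22), and NUG1 (-0.20) were not called.

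**Figure D4:**
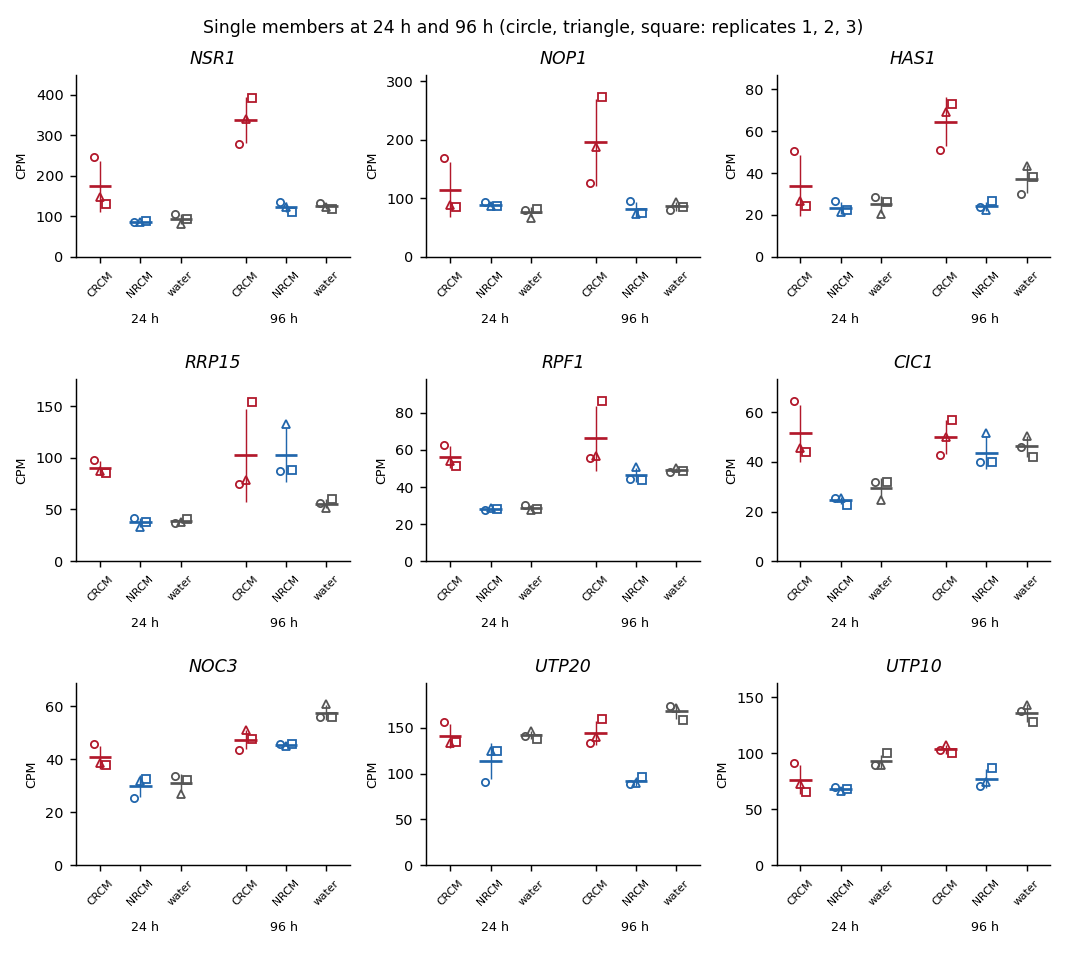
CPM of 9 assembly factor genes in each library at 24 h (left in each panel) and 96 h (right), for CRCM, NRCM, and water. Symbols mark the replicates, horizontal lines the means, and vertical lines the SD (n = 3). At 24 h all CRCM values of RRP15, RPF1, NSR1, CIC1, and NOC3 lie above the others. At 96 h those of NSR1, NOP1, HAS1, and RPF1 do, and the means of UTP10 and UTP20 are highest with water.

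With NRCM few of these transcripts differed from water in the main test, and those called were nearly all lower. The number called depended on the libraries in the fit. At 24 h, 0 of 59 genes were higher with NRCM than with water (6.69% of all genes, and 0 at an unadjusted p under 0.05 and with edgeR and DESeq2) and 6 were lower (6.42%), with a median log2 fold change of -0.25 against -0.02 over all genes. The lower genes were RRP12, ESF1, NOP16, UTP10, UTP4, and NOC2. RRP12, which helps export small subunits, stood at 50.3, 50.1 and 47.7 CPM with NRCM, against 72.5, 72.4 and 76.3 CPM with water (log2 -0.57 ± 0.14 (SE), adjusted p = 0.0275). The groups did not overlap. ESF1 (log2 -0.51) and NOP16 (-0.50) followed in size. The count of 6 ranged from 0 to 13 when single libraries were left out, with 0 without water 24 h replicate 1 or 3 or NRCM 24 h replicate 2 or 3, 1 without CRCM 24 h replicate 2, and 13 without NRCM 24 h replicate 1. These counts have no share of all genes beside them and cannot be set against a background.

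At 96 h, 12 of 59 genes were lower with NRCM than with water (12.1% of all genes) and 1, RRP15, was higher (12.5%), with a median log2 fold change of -0.21. UTP20 (YBL004W) stood at 88.4, 89.4 and 96.5 CPM with NRCM, against 174, 172 and 158 CPM with water (log2 -0.87 ± 0.10 (SE), adjusted p = 0.000629). UTP10 (log2 -0.82) came next, and RRP15 rose by a log2 fold change of 0.84 ± 0.25 (SE) with adjusted p = 0.0337, a call lost when any water or NRCM library of 96 h was left out. NOC2, RRP12, and UTP10 were lower at both times. The 12 included both factors for both subunits, HAS1 and RRP5, 2 of 4 GTPases, 5 of 21 small subunit genes, and 3 of 21 other large subunit genes. Between 5 and 27 were lower when single libraries were left out, 5 without water 96 h replicate 2 or NRCM 96 h replicate 2, 7 without water 96 h replicate 3 or NRCM 96 h replicate 1, and 27 without the library labelled CRCM 96 h replicate 3. That library is in neither group compared, though it was part of the main fit. With only the 6 libraries compared, 13 calls were kept and 22 gained. The shares of all genes called under these alternatives are not given here, so these counts cannot be set against a background.

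Set against each other, CRCM exceeded NRCM for most of these genes at 24 h. Higher with CRCM were 40 of 59 (22% of all genes) and lower 0 (19.9%, with 0 also at an unadjusted p under 0.05 and with edgeR and DESeq2), and the median log2 fold change was 0.50 against 0.00 over all genes. Called were 19 of 21 other large subunit factors, 5 of 5 helicases, 13 of 21 small subunit genes, 1 of 2 factors for both subunits, and 1 of 4 GTPases. Of the 6 genes of the snoRNP core with NSR1, only NSR1 was called. Largest were RRP15 (log2 1.23, adjusted p = 4.62e-05), NOP15 (1.06), CIC1 (1.02), RPF1 (0.96), and NOP16 (0.94), all large subunit factors. NSR1 differed by 0.93. NOP15, an RNA-binding protein gene, stood at 49.7, 43.6 and 37.6 CPM with CRCM, against 24.4, 16.8 and 20.2 CPM with NRCM, with no overlap. Smallest were RRP1 (log2 -0.00), EMG1 (0.02), NUG1 (0.06), NOP56 (0.08), and GAR1 (0.10). Without CRCM 24 h replicate 1, 29 were higher and 0 lower, with no share of all genes given beside these counts. The main test did not pair replicates by number, and with a replicate block 37 were higher.

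At 96 h, 25 were higher with CRCM than with NRCM (17.3%) and 0 lower (19.7%, and 0 at an unadjusted p under 0.05 and with both count tools), with a median of 0.37. NSR1 (1.43), HAS1 (1.36, adjusted p = 0.000191), NOP1 (1.20), NOP15 (0.92), and NOC2 (0.87) had the largest log2 fold changes. RRP9 (-0.12), RRP15 (-0.06), ESF2 (-0.03), RRS1 (0.03), and EMG1 (0.05) had the smallest and were not called. The snoRNP core with NSR1 was called in 4 of 6 cases, both factors for both subunits were, and the other roles in 9 of 21, 8 of 21, 1 of 5, and 1 of 4 cases (large subunit, small subunit, helicases, GTPases). Of the 25 genes, 16 (64%) were among the 40 called at 24 h (40% of those). Without the library labelled CRCM 96 h replicate 3, 24 were higher and 2 lower, RRS1 and RRP9, again with no share of all genes beside them. These comparisons share the CRCM cultures with those against water, so their values are given side by side and are not independent.

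An interaction term, fitted with every library, asked whether the effect of CRCM against water differed at 96 h from that at 24 h. Of the 59 genes 2 were called, where 29.9% of all genes were, and for both the log2 effect against water was smaller at 96 h. For CIC1 the effect differed by -0.65 ± 0.24 (SE) (adjusted p = 0.0462), and for NOC3 by -0.65 ± 0.18 (SE) (adjusted p = 0.00754). CIC1 stood at 42.9, 50.2 and 56.9 CPM with CRCM at 96 h, against 46.1, 50.5 and 42.1 CPM with water, and these overlapped, unlike at 24 h. MAK5 (log2 -0.60, adjusted p = 0.0502) had the next largest drop. NOP1 (0.60), CBF5 (0.57), and NSR1 (0.57) had the largest gains, and none was called. Without CRCM 24 h replicate 1, 5 genes were called (NOC3, NSR1, NOP1, CBF5, and HAS1), and without the library labelled CRCM 96 h replicate 3, 9 were. NOC3 was called under all of the alternatives run for this term, which did not include removal of the trend on length. CIC1 was not called without CRCM 24 h replicate 1, CRCM 96 h replicate 1 or 2, water 24 h replicate 2 or 3, or water 96 h replicate 1 or 2, nor with DESeq2 or its size factors or a replicate block. Without scaling factors 32 of the 59 genes were called, all with a smaller effect at 96 h. Without these factors the median of all genes for CRCM against water also shifts up at 24 h and down at 96 h. The shares of all genes called in this term under these alternatives are not given here, so these counts cannot be set against a background. For NRCM, 0 of 59 were called, where 1.38% of all genes were, 2 passed an unadjusted p under 0.05, and edgeR and DESeq2 called 0.

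The rest of the regulon was read from 58 other assembly factors and 8 RNA polymerase I genes, lists that were likewise drawn up with earlier results known. For CRCM against water at 24 h, 30 of the 58 (51.7%) were higher, where 26.8% of all genes were, and 2 (3.45%) lower, where 24.7% were, with a median log2 fold change of 0.45. Without CRCM 24 h replicate 1, 24 were higher and 3 lower (median 0.30). At 96 h 9 (15.5%) were higher and 3 (5.17%) lower, both below the 19.5% and 21.9% of all genes (median 0.10, or -0.01 without scaling factors), and without the library labelled CRCM 96 h replicate 3, 7 were higher and 9 lower (median -0.03). Against NRCM, 44 of the 58 (75.9%) were higher with CRCM at 24 h, where 22% of all genes were, and 0 lower, or 32 and 1 without CRCM 24 h replicate 1. At 96 h 16 (27.6%) were higher, where 17.3% of all genes were, and 1 lower, or 15 and 3 without the library labelled CRCM 96 h replicate 3. For these fits against NRCM with a library left out, the shares of all genes are not given here. Of 8 polymerase I genes 2 were higher and 0 lower at 24 h (median 0.04), and at 96 h 2 were higher and 2 lower (median 0.17).

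The 137 genes of cytosolic ribosomal proteins, the proteins that these factors assemble, had a median of the other sign at 24 h. With CRCM against water, 1 (0.730%) was higher and 19 (13.9%) were lower, both below the 26.8% and 24.7% of all genes, with a median log2 fold change of -0.61, against 0.38 for the 59 assembly factors, and the difference between the lists was not tested. The 2 medians kept these signs without scaling factors, at -0.18 and 0.80. The ribosomal protein genes made up between 1.05% and 2.19% of reads with CRCM, 1.19% and 2.57% with NRCM, and 1.47% and 1.88% with water at 24 h, so the 3 groups overlapped. The count depends on CRCM 24 h replicate 1, without which 82 were lower and 1 higher (median -0.98). At 96 h with CRCM, 26 (19.0%) were higher than with water, near the 19.5% of all genes, and 2 (1.46%) lower, where 21.9% of all genes were, with a median of 0.17. Without the library labelled CRCM 96 h replicate 3, 24 were higher and 12 lower, and the median was -0.00. At 96 h against 24 h, 132 of 137 were higher in CRCM cultures (median log2 1.45), where 22.5% of all genes were. In NRCM cultures 80 were called, 78 of them higher, where 28.8% of all genes were higher. In water cultures 66 were called, 63 of them higher, where 27.2% of all genes were higher. These calls depend on the scaling, and without scaling factors the medians were 1.59 with CRCM, 1.24 with NRCM, and 1.3 with water. In water cultures all 137 had fallen by 24 h, where 39.3% of all genes were called lower. Their median log2 fold change was -3.38, against -2.51 for the assembly factors.

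**Figure D5:**
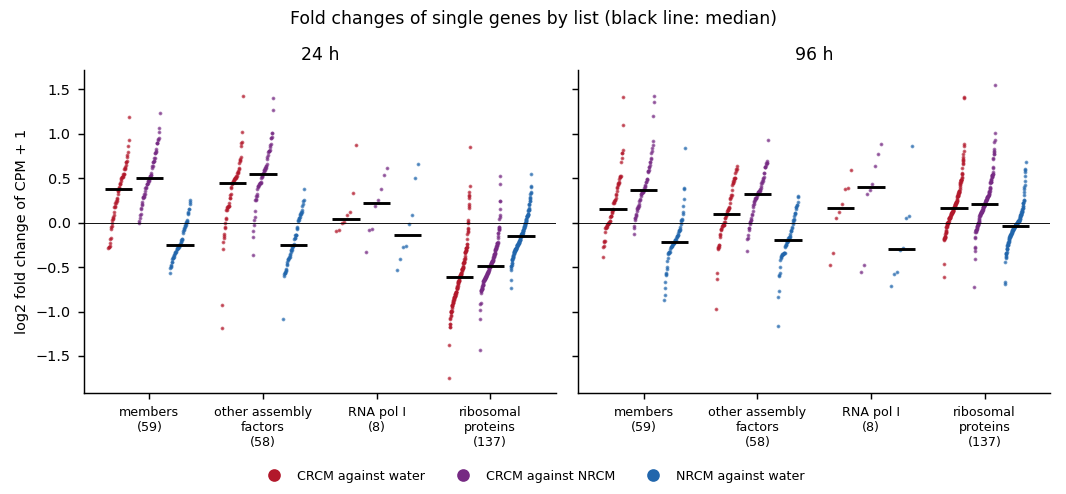
Each point is a gene, and black lines are medians, for CRCM against water, CRCM against NRCM, and NRCM against water at 24 h and 96 h. At 24 h the 59 assembly factors have medians of 0.38, 0.50, and -0.25 on the log2 scale, and the 137 ribosomal protein genes lie mostly below 0 for CRCM against water, with a median of -0.61.

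Transcripts were also read for 7 regulators of assembly factor or ribosomal protein genes. With CRCM at 24 h, 5 of 7 (71.4%) were higher than with water, where 26.8% of all genes were, and the same 5 without CRCM 24 h replicate 1. IFH1, the coactivator of ribosomal protein genes, averaged 137 ± 12.1 CPM with CRCM and 75.1 ± 2.28 CPM with water (log2 0.86, adjusted p = 0.000421 by limma). Its partner FHL1 (log2 0.65, adjusted p = 0.000151), the activator SFP1 (0.68, adjusted p = 0.00657), the RRPE-binding repressor STB3 (0.43), and the kinase gene SCH9 (0.33) were also higher. The PAC-binding repressors DOT6 (0.28) and TOD6 (0.29) were not called. With NRCM at 24 h, STB3 (log2 0.57, adjusted p = 0.0172) and SCH9 (0.40, adjusted p = 0.0353) were also higher than with water, so that 2 of 7 were called, where 6.69% of all genes were. For CRCM against NRCM only IFH1 (log2 0.89) and FHL1 (0.58) were called higher at 24 h, and STB3 (-0.14) and SCH9 (-0.07) were not called. At 96 h IFH1 stood at 271, 283 and 537 CPM in the CRCM cultures, 289.5, 302 and 277 CPM in the NRCM cultures, and 194, 189 and 234 CPM in the water cultures. The NRCM cultures lay within the range of the CRCM cultures, and the log2 fold change for CRCM against water of 0.75 (called) was 0.43 without the library labelled CRCM 96 h replicate 3, still called, with 0.50 for NRCM against water (adjusted p = 0.121). TOD6 was lower with CRCM than with water (-0.27), and STB3, TOD6, and SCH9 were lower with CRCM than with NRCM at 96 h (log2 -0.36, -0.33, and -0.43). In water cultures DOT6 rose by a log2 fold change of 2.58 at 24 h against log phase, TOD6 (-0.96), IFH1 (-1.16), and FHL1 (-1.05) fell, and SFP1 (0.53) and STB3 (0.30) rose. These are transcript levels, and the activity of the proteins was not measured.

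Sorted by PAC and RRPE content, the classes had overlapping ranges of fold change. The 45 genes with both elements had a median log2 fold change of 0.36 for CRCM against water at 24 h, and the 11 with PAC alone 0.49. At 96 h these medians were 0.22 and 0.07. With CRCM 24 h replicate 1 left out they were 0.17 and 0.35 at 24 h, and without the library labelled CRCM 96 h replicate 3 they were 0.01 and -0.02 at 96 h. For 24 h against log phase they were -2.51 and -2.28 in water cultures. The 2 genes with neither, ESF2 and EMG1, fell with the rest by 24 h (log2 -2.20 and -3.06 in water cultures). ESF2 rose with CRCM at 24 h (log2 0.65, adjusted p = 0.001 by limma). No test was made of these classes.

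Fold changes of the 59 genes ran with ORF length. Across these genes, the log2 fold change correlated with log2 ORF length at r = -0.50 (Spearman rho = -0.45) for CRCM against water at 24 h, r = -0.49 at 96 h, and r = -0.69 for NRCM against water at 96 h, all against the shared water libraries. For CRCM against NRCM r was -0.29 at 24 h and 0.09 at 96 h. In log phase, where 0 genes were called, r was already -0.62 for CRCM and -0.48 for NRCM against water. Over all genes with a known length, r lay between -0.28 and 0.06 in these comparisons. Genes are not independent replicates, and these are descriptions. With the trend on length removed from each library, a choice made after seeing the data, CRCM against water at 24 h gave 25 higher and 1 lower (RRP1), and at 96 h 16 higher and 0 lower, so that UTP10 and NOC3 were no longer called. NRCM against water gave 2 lower at 24 h and 7 at 96 h. The part that length has in the calls against water was otherwise not tested.

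SSF1 shares 92.15% of its bases over 1363 positions with its paralog SSF2 (YDR312W), so reads of these genes may be split between them and the values of SSF1 are uncertain. NOG2 holds the snoRNA gene SNR191 within its bounds (274 bases), on the same strand. No other of the 59 ORFs had a copy with 90% identity over at least 100 bases or overlapped another annotated gene.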

How the data were processed

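RNA-seq libraries of 9 groups (3 supplements at 3 times, n = 3) were compared for the 59 assembly factor genes, 58 other assembly factors, 8 RNA polymerase I genes, 7 regulators, and 137 ribosomal protein genes. The members and lists were chosen with earlier results of these data known. The authors mapped reads to sacCer3 with bowtie2, and the submitters' processing notes also name bedtools, edgeR, and DESeq2 without versions. The counting step and its strand setting are not given in the sources used here, and the labels and the methods name different RNA extractions and library kits. The deposited signal values are each gene's share of its library (every column sums to 1), although they are titled raw counts. Columns left out numbered 0. Library totals were recovered from the steps between low values. With these totals 99.98% of the testable values (38.8% of all) were whole to within 0.1 reads, and 99.42% in the lowest library. Totals ran between 7396426 and 114316156 reads, and only counting error is smaller in deeper libraries.

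Shares were scaled to CPM with TMM factors, and genes with at least 1 CPM in 3 libraries were tested as log2(CPM + 1) with limma 3.58.1 (variance trend, R 4.3.3), so fold changes of low genes are understated. P-values were adjusted over all genes by Benjamini-Hochberg at 0.05. Supplements were compared within a time from its 9 libraries, and times and interactions from all 27. The methods name DESeq2 on counts. Because the file holds shares, edgeR 4.0.16 and DESeq2 1.42.0 on recovered reads were alternatives. The others were DESeq2 size factors, no scaling factors, a pseudocount of 0.1, no filter on low values, a replicate block, only the 6 libraries compared, all 27 libraries in one fit, each replicate left out, and, chosen after seeing the data, removal of the trend on ORF length. The limma step was tested on simulated data. Same-numbered CRCM and NRCM libraries deviated together in log phase (r between 0.481 and 0.751) and at 24 h (0.227 to 0.34), although the labels name no shared batch. The main tests did not pair libraries by number, and the replicate block was only an alternative. Named genes were the 5 largest and 5 smallest log2 fold changes with CRCM, calls against the majority, NSR1, the 3 largest changes with NRCM, the 3 largest and smallest falls over time, 3 in each direction for the interaction, and the highest gene per kb in each role. Other genes named were chosen after their values were seen. Promoter windows of 250 bases were read from the R64 assembly.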

Additional observations from a re-analysis of the deposited data

Results flagged for a closer look

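The effect of CRCM against water differed between 24 h and 96 h for 2 of the 59 genes by the interaction term in limma. The log2 effect at 96 h minus that at 24 h was -0.652 for CIC1 and -0.647 for NOC3. CIC1 was above water with CRCM at 24 h and overlapped it at 96 h, and NOC3 was above water with CRCM at 24 h and below it at 96 h. NOC3 was called in this term under all of the alternatives run for it, which did not include removal of the trend on length. Its calls against water within a time were less stable. The call at 24 h was lost without water 24 h replicate 2 or 3 or CRCM 24 h replicate 1 or 2. The call at 96 h was lost without any 1 of the water libraries of 96 h, with a replicate block, and with the length trend removed, among others. CIC1 was not called when CRCM 24 h replicate 1, CRCM 96 h replicate 1 or 2, water 24 h replicate 2 or 3, or water 96 h replicate 1 or 2 was left out, nor with DESeq2 or its size factors or a replicate block.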

How the results depend on the processing

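Counts are of the 59 genes. Without scaling factors, CRCM against water gave 49 higher at 24 h, and 8 higher and 4 lower at 96 h, and NRCM against water gave 2 lower at 24 h. The comparison of 24 h against log phase in CRCM cultures gave 57 lower (NOP16 was lost). That of 96 h against 24 h gave 56 called in water, 49 in NRCM, and 26 in CRCM cultures. Without these factors the change of the CRCM effect gave 32, with no share of all genes given beside it. Of all genes, 57.4% were then higher and 9.97% lower for CRCM against water at 24 h (26.8% and 24.7% with TMM), 52.5% and 8.27% for CRCM against NRCM at 24 h (22% and 19.9%), and 14% and 28.2% for CRCM against water at 96 h (19.5% and 21.9%). For 96 h against 24 h they were 68.6% and 9.04% in water (27.2% and 26.5%), 57% and 12.1% in NRCM (28.8% and 28.3%), and 29.5% and 18.2% in CRCM cultures (22.5% and 24.7%). With the length trend removed, CRCM against water gave 1 lower at 24 h and 0 at 96 h, and NRCM against water 2 and 7. With only the 6 libraries compared, CRCM against water gave 1 lower at 96 h, and NRCM against water 2 lower at 24 h and 4 higher and 31 lower at 96 h. With all 27 libraries in one fit, CRCM against water gave 1 lower and NRCM against water 0 higher at 96 h. With DESeq2 size factors, and with DESeq2 on recovered reads, the change of the CRCM effect gave 1 (CIC1 was lost). The causes were not tested.

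A replicate block gave 1 lower for CRCM against water at 96 h, 1 for the change of the CRCM effect (CIC1 was lost), and 37 higher for CRCM against NRCM at 24 h (40 without it). It moved no other count by over 1.5 times.

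With single libraries left out, CRCM against water gave 20 to 32 higher and 0 to 6 lower at 24 h (6 without CRCM replicate 1), and 7 to 22 higher and 1 to 7 lower at 96 h (7 lower without CRCM replicate 3). NRCM against water gave 0 to 13 lower at 24 h, and 0 to 3 higher and 5 to 27 lower at 96 h. CRCM against NRCM gave 29 to 38 higher at 24 h, and 18 to 37 higher and 0 to 2 lower at 96 h. For 96 h against 24 h, 14 to 17 were called in water, 18 to 27 in NRCM (18 without NRCM 96 h replicate 1), and 7 to 24 in CRCM cultures (7 without CRCM 24 h replicate 2, 9 without CRCM 24 h replicate 3 or 96 h replicate 3, 10 without CRCM 96 h replicate 2). The change of the CRCM effect gave 1 to 9. CIC1 lost its call under 7 of 12 libraries left out, and NOC3 under none. All falls by 24 h and the 0 calls in log phase stayed under every library left out. Shares of all genes called with a library left out are given only for CRCM against water, without CRCM 24 h replicate 1 or CRCM 96 h replicate 3. The other counts with a library left out cannot be set against a background. Of the values of the named genes for CRCM against water under alternatives, 184 kept their side of the threshold at 24 h and 6 passed it anew. Direction was not always kept, since UTP10 and RRP12, not called, changed sign at 24 h without scaling factors (log2 0.13 and 0.14). At 96 h 173 kept their side of the threshold, 4 passed it anew, and 13 no longer passed it. No value changed sign while called.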
